A study of Mus musculus with 11 samples.

Results

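The mitochondrial ribosome is built from ribosomal RNA made inside the mitochondrion and from proteins encoded in the nucleus, which are made in the cytosol and imported. It translates the few respiratory chain proteins that the mitochondrial genome still encodes. Its small subunit, most of whose genes are named Mrps, decodes the messenger RNA, and its large subunit, most of whose genes are named Mrpl, joins amino acids and feeds the new protein to the inner membrane. The results below describe the genes of both subunits in mouse embryonic stem cells. Members were rows whose mouse symbol begins with Mrpl or Mrps followed by a digit and whose mean level was at least 1 CPM, the read count scaled to library size. Such a symbol was found for 78 of the 22369 genes listed, and 76 of these passed the minimum, as did 12479 genes in all. The 76 members comprised 29 genes with an Mrps symbol and 47 with an Mrpl symbol, which are called small and large subunit genes below. The name does not settle the subunit in every case, since structures of the mammalian ribosome place the Mrps18a and Mrps30 proteins in the large subunit and Mrps36 is mainly known from another complex.

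Messenger RNA was sequenced from 11 clonal lines, named here clones 16 to 26 after their labels, with 1 library for each clone. All 11 derive from EBRTcH3, an embryonic stem cell line that expresses a tetracycline-controlled transactivator from the ROSA26 promoter, and all carry several barcoded piggyBac insertions in which the mouse PGK promoter (mPGK) drives a reporter. Cells were sorted for high eGFP before single clones were picked, and each line is therefore 1 clone. All clones were cultured in medium conditioned by BRL cells with leukemia inhibitory factor, the MEK inhibitor PD0325901 and the GSK-3 inhibitor CHIR99021. No clone was set apart by a treatment, so each clone was compared with the other 10. P-values measure the spread between these single libraries, which may be technical in part. In cultures sequenced in bulk, fewer expressing cells and less RNA per cell cannot be told apart.

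The libraries held 10846005 counts (clone 16) to 16868500 counts (clone 23), with a median of 14378599, and 15910 to 16634 genes had at least 1 count. Embryonic stem cell markers were abundant, and their 6 genes summed to between 5856 and 7507 CPM per clone, led by the naive-state transcription factor gene Tfcp2l1 at 1971 ± 423 CPM (SD, n = 11). The 8 fibroblast markers summed to between 11.1 and 28.4 CPM, mostly from Pdgfrb, a growth factor receptor gene, at 11.0 ± 4.65 CPM (SD, n = 11). Col1a1, a collagen gene, was the 1 variable fibroblast marker, with a mean of 1.17 CPM. The 7 liver markers summed to between 0.880 and 5.64 CPM, with 3 of them at 0 in all clones and the fibrinogen gene Fgg highest at 2.13 CPM. The 5 blood markers in the table summed to between 4.25 and 10.3 CPM, mostly from the transcription factor gene Spi1 at 4.39 CPM.

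Promoter sequences of 6 members are shown first, because the clone differences below centre on members that lie in shifted chromosome parts, and because Mrps11 and Mrpl46 share a start region. Mrpl21, Mrpl49 and Mrpl11 were called higher in clone 17, Mrpl9 had the next smallest adjusted p, and Mrpl52 stood low in clone 21. The windows run from 250 bases before to 50 bases after the RefSeq start, on GRCm38.p6, and are written 5′ to 3′ on the gene's strand. Capitals mark matches, on either strand, to the letters searched for NRF1, ETS factors such as GABP, or YY1, which are nuclear regulators of mitochondrial genes. The letters searched were GCGCA and GCGC with any 1 base between them for NRF1, CCGGAAG for ETS, and for YY1 AA, any 1 base, ATGGCG, any 1 base and C. Mrpl21 lies at chr19:3282792-3283091 on the plus strand, Mrpl49 at chr19:6057706-6058005 on the minus strand and Mrpl11 at chr19:4962056-4962355 on the plus strand. Mrpl9 lies at chr3:94443086-94443385, Mrpl52 at chr14:54426659-54426958 and Mrps11 at chr7:78782881-78783180, all on the plus strand.
Mrpl21: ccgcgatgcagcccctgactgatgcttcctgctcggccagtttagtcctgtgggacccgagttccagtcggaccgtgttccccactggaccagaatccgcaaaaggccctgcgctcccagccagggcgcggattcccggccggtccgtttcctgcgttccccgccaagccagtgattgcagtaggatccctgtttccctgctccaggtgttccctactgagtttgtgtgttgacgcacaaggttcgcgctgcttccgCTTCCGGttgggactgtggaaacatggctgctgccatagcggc
Mrpl49: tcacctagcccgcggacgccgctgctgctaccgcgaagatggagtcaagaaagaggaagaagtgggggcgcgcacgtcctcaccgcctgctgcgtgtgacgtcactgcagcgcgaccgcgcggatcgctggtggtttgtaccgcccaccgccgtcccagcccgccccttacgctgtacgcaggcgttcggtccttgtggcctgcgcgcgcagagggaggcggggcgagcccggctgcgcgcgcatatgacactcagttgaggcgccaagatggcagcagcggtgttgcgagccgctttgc
Mrpl11: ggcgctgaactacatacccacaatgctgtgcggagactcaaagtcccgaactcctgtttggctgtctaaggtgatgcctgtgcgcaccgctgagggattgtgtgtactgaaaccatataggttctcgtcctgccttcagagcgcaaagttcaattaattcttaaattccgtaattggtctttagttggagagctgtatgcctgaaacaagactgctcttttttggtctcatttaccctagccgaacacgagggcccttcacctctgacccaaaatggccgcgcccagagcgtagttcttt
Mrpl9: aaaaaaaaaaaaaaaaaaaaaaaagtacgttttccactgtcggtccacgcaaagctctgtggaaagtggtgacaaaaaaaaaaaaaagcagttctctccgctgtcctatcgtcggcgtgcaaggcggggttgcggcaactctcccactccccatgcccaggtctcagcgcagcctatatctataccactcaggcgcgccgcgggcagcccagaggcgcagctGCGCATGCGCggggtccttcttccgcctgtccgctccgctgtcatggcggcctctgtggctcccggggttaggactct
Mrpl52: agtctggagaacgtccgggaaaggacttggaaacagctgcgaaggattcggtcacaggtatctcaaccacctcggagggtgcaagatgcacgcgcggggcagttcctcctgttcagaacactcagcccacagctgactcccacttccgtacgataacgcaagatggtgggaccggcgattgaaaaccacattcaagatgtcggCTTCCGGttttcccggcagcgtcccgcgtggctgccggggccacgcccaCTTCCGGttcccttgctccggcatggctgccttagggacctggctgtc
Mrps11: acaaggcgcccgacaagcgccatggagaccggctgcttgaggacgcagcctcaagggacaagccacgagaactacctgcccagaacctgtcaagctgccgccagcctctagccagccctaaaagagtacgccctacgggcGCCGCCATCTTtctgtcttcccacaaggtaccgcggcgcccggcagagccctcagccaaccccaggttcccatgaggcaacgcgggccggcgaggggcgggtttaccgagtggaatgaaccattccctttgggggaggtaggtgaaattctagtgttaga

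Of the 3 genes called in clone 17, Mrpl21 held 1 ETS match and Mrpl49 and Mrpl11 held none of the 3 motifs. Mrpl9 held 1 NRF1 match, Mrpl52 held 2 ETS matches and Mrps11 held 1 YY1 match. RefSeq windows were found for 67 of the 76 members. The NRF1 letters were in 13 of these windows (19.4%), against 11.8% of the 9756 windows of tested genes. The ETS letters were in 24 (35.8%), against 20.3%, and the YY1 letters in 8 (11.9%), against 4.15%. The E-box CACGTG, which MYC and related factors bind, was in 5 (7.46%), against 12.0%. In all, 37 of the 67 windows (55.2%) held at least 1 match to the NRF1, ETS or YY1 letters, against 32.2% of the windows of tested genes. These are letter matches in a fixed window and were not tested as binding sites. Mrps11 and Mrpl46, a small and a large subunit gene on chromosome 7, are read in opposite directions from starts 40 bases apart, and their windows share 141 bases. Their annotated exons also overlap by 173 bases, so reads there cannot be assigned to either gene without strand. Whether counting used strand was not given in the sources used here.

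Levels were compared between genes as CPM per kilobase of annotated exon. Small subunit genes had a median level of 11.2 CPM per kb, with a range of 1.84 to 39.5. Large subunit genes had a median level of 16.4 CPM per kb, with a range of 0.315 to 88.5. The 2 distributions overlapped over most of their range, as the plot of member levels shows. Averaged over its genes, the small subunit stood at 13.1 ± 0.524 CPM per kb and the large subunit at 19.6 ± 0.934 CPM per kb (SD, n = 11 clones). The ratio of small to large was 0.669 ± 0.0207 (SD, n = 11). It was lowest in clone 17 at 0.629 and highest in clone 19 at 0.706. The difference between subunits thus kept its direction in each of the 11 clones. In clone 17 the 5 members in shifted chromosome parts, described below, were all large subunit genes and all higher. The ratio without members in shifted parts was not computed. With the longest annotated transcript in place of all exons as the length, the ratio was 0.714. With Mrps18a and Mrps30 counted in the large subunit and Mrps36 left out, an alternative chosen after seeing the data, it was 0.73.

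**Figure D1:**
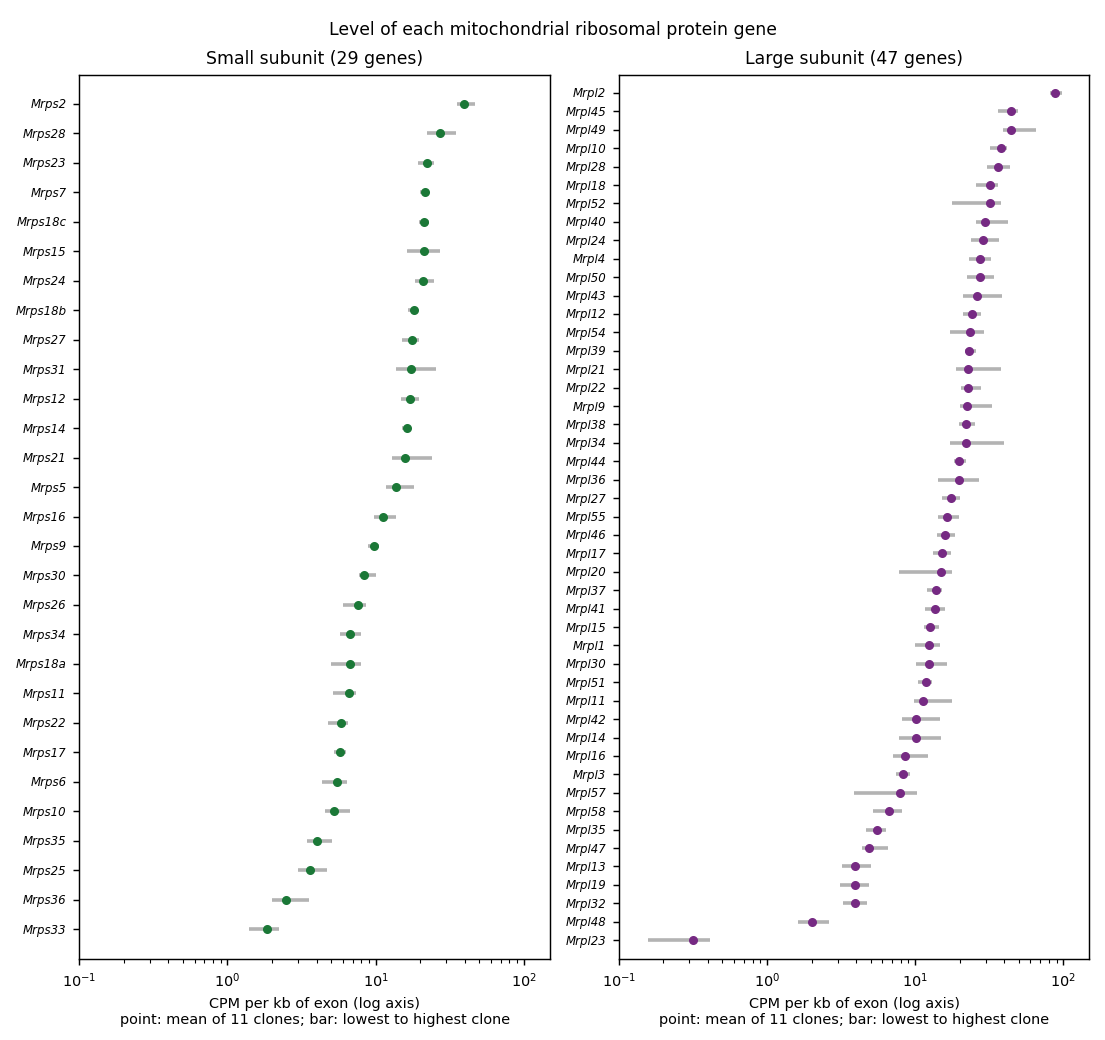
Mean level of each member in CPM per kb of exon (log axis) for the small and the large subunit, with bars for the lowest and highest of the 11 clones. The 2 subunits overlap, with medians of 11.2 (small) and 16.4 (large) CPM per kb, and Mrpl23 at 0.315 stands below all other members.

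In the small subunit Mrps2, the counterpart of a bacterial protein that binds between body and head of the subunit, was the highest at 39.5 ± 3.48 CPM per kb (SD, n = 11). Mrps28 followed at 27.1 ± 3.68 CPM per kb, and then Mrps23, Mrps7 and Mrps18c at 22.3, 21.4 and 21.1 CPM per kb. These 4 genes had ranges over the clones that overlapped each other, whereas the lowest value of Mrps2, at 35.2 CPM per kb, was above the highest of Mrps28 at 34.9. With the longest transcript as the length, Mrps2 stayed highest at 46.1 CPM per kb. Mrps18b, Mrps15, Mrps24 and Mrps18c were then next, at 35.1, 34.5, 31.0 and 27.7. Mrps28, Mrps23 and Mrps7, at 27.1, 24.7 and 22.6, were no longer among the highest 5. By annotated exon length, Mrps25, Mrps36 and Mrps33 were the lowest, at 3.62, 2.47 and 1.84 CPM per kb. Of these, Mrps36 is now known mainly as a subunit of the mitochondrial alpha-ketoglutarate dehydrogenase complex. Mrps36 also has 3 annotated pseudogenes, with which its reads could be shared. For Mrps25, 4590 of its 6576 exon bases overlap exons of Nr2c2 on the other strand.

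In the large subunit Mrpl2, a conserved core protein near the site of peptide bond formation, stood at 88.5 ± 4.18 CPM per kb (SD, n = 11). Its range of 81.8 to 97.5 CPM per kb over the clones lay above that of every other member. Mrpl45, which sits at the exit of the peptide tunnel and helps to hold the ribosome at the inner membrane, was at 44.5 CPM per kb, and Mrpl49, a protein with no bacterial counterpart, at 44.1. Mrpl10, part of the base of the stalk that recruits translation factors, was at 38.1 CPM per kb and Mrpl28 at 36.4. The ranges of these 4 genes over the clones overlapped each other. With the longest transcript as the length, Mrpl2 stayed highest at 100.5 CPM per kb. Mrpl24 was then second at 48.1, and Mrpl10, at 38.1, was no longer among the highest 5. Mrpl32, Mrpl48 and Mrpl23 were the lowest, at 3.90, 2.001 and 0.315 CPM per kb. With the longest transcript, Mrpl19 at 4.29 took the place of Mrpl32, at 6.46, among the lowest 3. Mrpl48 and Mrpl23 each have 1 annotated pseudogene.

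Of the 76 members 71 had a mean of at least 10 CPM. Just inside the minimum lay Mrpl23, at 0.770 to 2.01 CPM over the clones, and Mrps33 and Mrps36, with means of 3.07 and 3.15 CPM. Just outside lay Mrps36-ps1, named as a pseudogene, at 0.0959 CPM and Mrpl53 at 0.0359 CPM, with 6 counts over all 11 libraries. The 2 are at or below the level that 3 counts represent, which was 0.173 to 0.284 CPM depending on the library. Of the 790 exon bases of Mrpl53, 695 are also exon of Gm42688 on the same strand. Exons of another gene overlapped those of 31 of the 76 members, on the same strand for 6 and on the opposite strand for 27.

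Mrps18a, Mrps18b and Mrps18c are 3 paralogues related to bacterial ribosomal protein S18, and they differed in level. Mrps18c stood at 21.1 ± 1.22 CPM per kb, Mrps18b at 18.1 ± 0.984 and Mrps18a, whose protein is found in the large subunit in structures of the mammalian ribosome, at 6.72 ± 0.780 (SD, n = 11 each). Mrps18a was below both others in every clone, with 7.95 CPM per kb as its highest value against 16.4 as the lowest of Mrps18b. The ranges of Mrps18c, 19.7 to 23.1, and Mrps18b, 16.4 to 19.25, did not overlap either. However, 250 of the 1076 exon bases of Mrps18c overlap exons of Gm43511 on the same strand. For Mrps18b, 638 of its 2089 exon bases overlap exons of Gm16279 on the other strand. With the longest transcript as the length, Mrps18b stood at 35.1, Mrps18c at 27.7 and Mrps18a at 11.2 CPM per kb, so the order of Mrps18b and Mrps18c was turned round.

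The spread between clones was small. Of the 76 members 0 varied more than genes of like abundance, against 7.68% of the 12479 tested genes, by the edgeR goodness-of-fit test with Benjamini-Hochberg adjustment. At an unadjusted p under 0.05 the count was also 0, against 13.1% of tested genes, and it was 0 with the dispersion trend of DESeq2. The smallest unadjusted p of a member in this goodness-of-fit test of edgeR was 0.372, for Mrpl57. That gene stood at 11.4 CPM in clone 21 and 19.8 to 30.2 CPM in the other 10. The test sets each gene against the spread of genes of like abundance, taken from a trend over abundance. Over all tested genes the common coefficient of variation was 24.8%. A change in 1 clone can therefore go uncalled, and the count of 0 does not show that no member differed. The standard deviation over clones of log2(CPM + 1) had a median of 0.15 for members, with a range of 0.06 to 0.36, and a median of 0.24 for all tested genes. It was 0.15 for 86 cytosolic ribosomal protein genes, of which 1 was variable, and 0.18 for a set of 80 nuclear genes of the respiratory chain and ATP synthase, of which 2 were variable. Members that lay in no shifted chromosome part of any clone had a median of 0.13 (61 genes), and those that did had 0.22 (15 genes).

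Among members averaging 5 CPM or more, the steadiest were Mrps7, Mrps14 and Mrpl2. Mrps7, a protein of the small subunit head, was at a lowest of 41.4 CPM, a median of 43.8 and a highest of 46.8 over the 11 clones. Mrps14 was at 49.4 to 56.5 CPM, and Mrpl2 at 95.7 to 114 CPM. The 6 members with the largest spread were Mrpl57, Mrpl34, Mrpl20, Mrpl52, Mrpl14 and Mrpl21, with SDs of 0.36, 0.32, 0.31, 0.30, 0.27 and 0.27 on the log2 scale. All belong to the large subunit, and all but Mrpl14 lie in a shifted chromosome part of 1 clone. Mrpl57 illustrates the pattern, with 11.4 CPM in clone 21 and 19.8 to 30.2 CPM in the other 10. Mrpl14, in no such part, was at a lowest of 7.44 CPM in clone 24, a median of 8.81 and a highest of 14.3 CPM in clone 19.

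**Figure D2:**
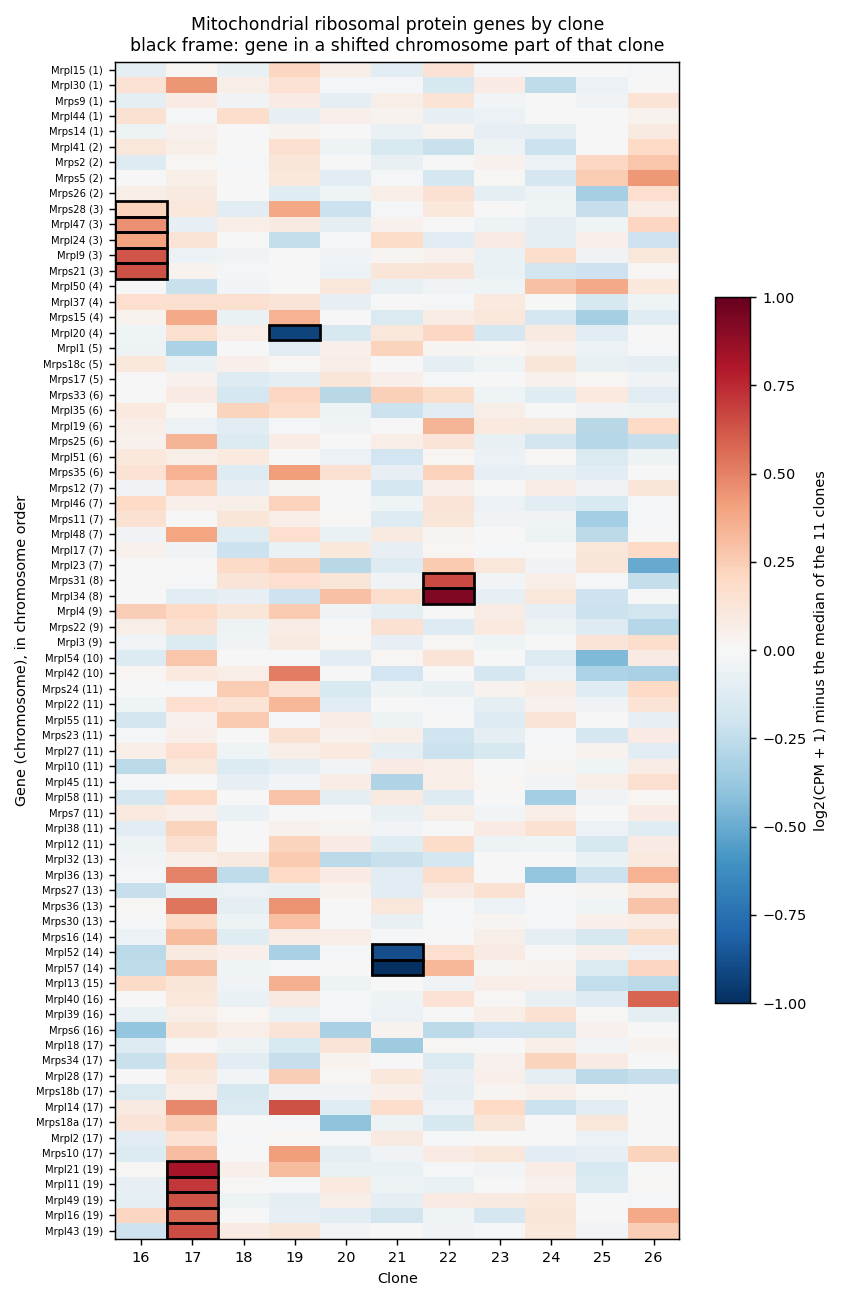
Difference of each member from its median over clones, on the log2(CPM + 1) scale, for 76 genes (rows) and 11 clones (columns). Black frames mark the 15 members in a shifted chromosome part of that clone, which hold the largest differences in each direction, and outside the frames the differences run from -0.51 to 0.64.

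Gained or lost chromosome parts were looked for as runs of neighbouring genes that all shifted in 1 clone. The shift was the median, over windows of 25 genes averaging 5 CPM or more and without the members, of log2(CPM + 1) in the clone minus the median clone. Runs of windows beyond 0.35 in either direction were kept. DNA was not measured, so a part is a shift in RNA level and no copy number was read from it. There were 29 such parts on 8 chromosomes, of which 23 were higher and 6 lower in their clone. Several parts of 1 chromosome in 1 clone were counted singly, and chromosome 15 had parts in clones 16, 17, 18 and 19. The 29 parts therefore need not be 29 separate changes. They were found in 9 clones, and clones 24 and 26 had none. Members lay in 8 of the 29 parts, and each of these 15 members lay in a part of 1 clone only. The plot of chromosome shifts shows where they lie.

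**Figure D3:**
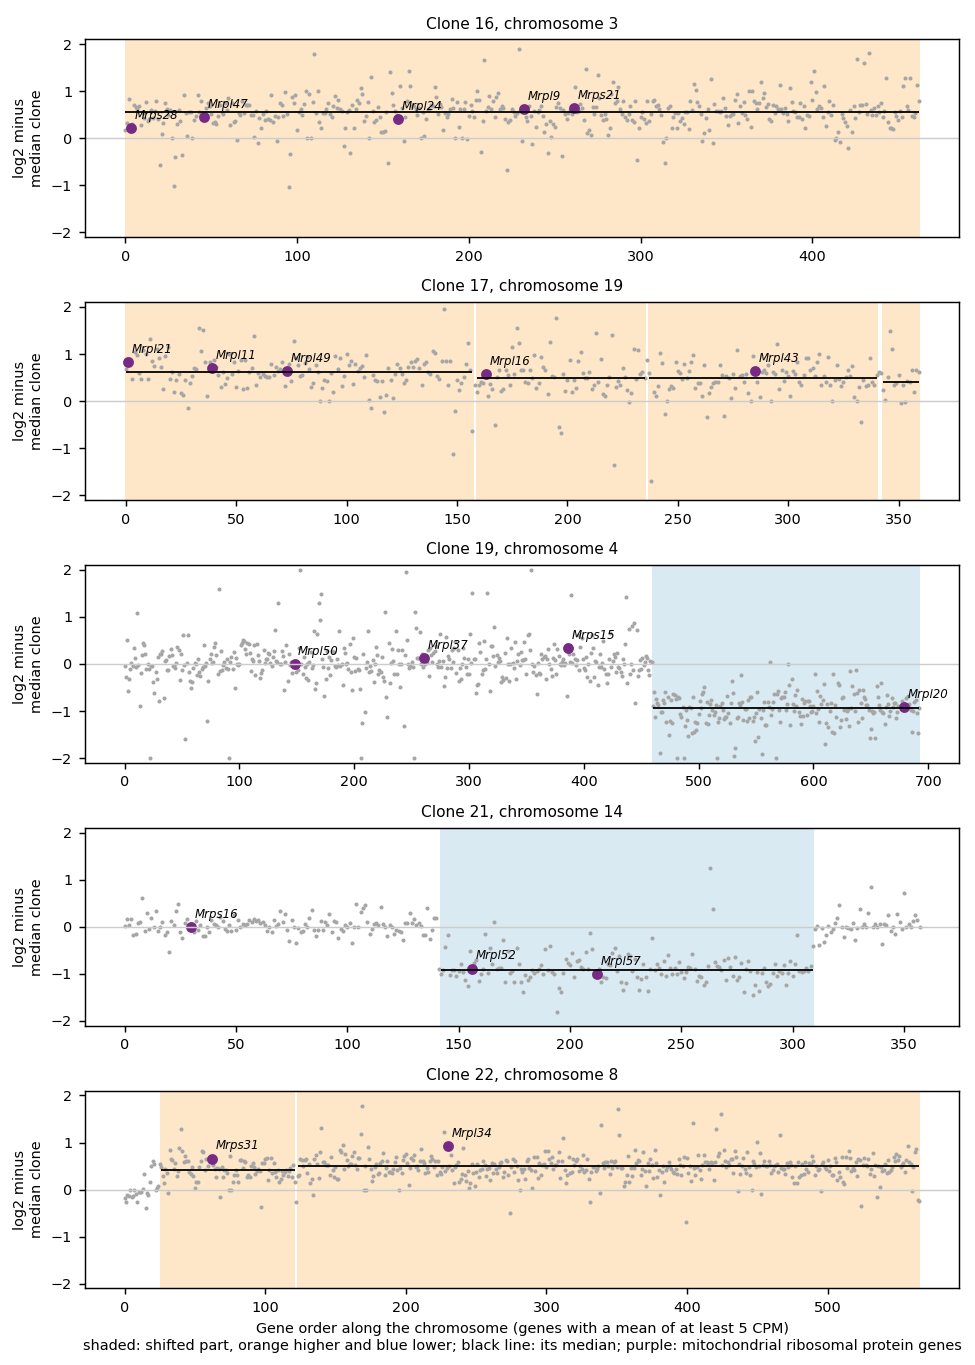
Genes in chromosome order on chromosomes that hold members in a shifted part, each in the clone with the shift, as log2(CPM + 1) minus the median clone (values beyond ±2 are drawn at ±2). Grey points are other genes, shading marks shifted parts (orange higher, blue lower), black lines are their medians and purple points are members. Members inside the shading lie on the side of the black line, and Mrpl50, Mrpl37, Mrps15 and Mrps16, outside it, lie at -0.01 to 0.35.

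Clone 17 had 4 higher parts on chromosome 19, and 5 members lay in 3 of them. Mrpl11, at the base of the stalk that recruits translation factors, stood at 57.5 CPM in clone 17, against a lowest of 31.7, a median of 34.6 and a highest of 37.4 CPM in the other 10 clones. Mrpl21, the counterpart of bacterial ribosomal protein L21, stood at 75.9 CPM in clone 17, against a lowest of 38.2, a median of 42.2 and a highest of 53.1 CPM in the others. Mrpl49 stood at 122 CPM in clone 17, against a lowest of 73.7, a median of 78.2 and a highest of 84.7 CPM in the others. In all 3 genes clone 17 lay above every other clone, with no overlap. Mrpl11 rose with a log2 fold change of 0.74 (SE 0.11) in clone 17 over the other 10, with an adjusted p of 0.0207 by the edgeR quasi-likelihood test. Mrpl21 rose by 0.82 (SE 0.14) and Mrpl49 by 0.64 (SE 0.11) on the same scale, each with an edgeR adjusted p of 0.0390.

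These 3 were the only calls among 836 pairs of a member and a clone by the edgeR quasi-likelihood test, all of them higher. Over all tested genes 0.213% of 137269 pairs were called, 0.105% higher and 0.109% lower. Lower calls numbered 0 among members. At an unadjusted p under 0.05 by the edgeR test 26 member pairs were higher, against 2.99% of all pairs, and 12 were lower, against 2.94%, out of 836. DESeq2 called 12 member pairs, 9 higher and 3 lower, against 1.05% of all pairs, and 11 of the 12 lay in the shifted parts. The call of Mrpl11 held when any of the other 10 clones was left out. That of Mrpl21 was lost without any 1 of clones 16, 18, 20, 21, 22, 23, 24, 25 or 26 (adjusted p up to 0.0792), and that of Mrpl49 without any 1 of clones 18, 20, 21, 22, 23 or 25 (adjusted p up to 0.0732). The fold changes moved little, at 0.80 to 0.85 for Mrpl21 and 0.62 to 0.65 for Mrpl49.

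The other members in these parts were Mrpl43 and Mrpl16. Mrpl43, a large subunit protein with no bacterial counterpart, stood at 58.9 CPM in clone 17, against a lowest of 32.1, a median of 36.9 and a highest of 44.4 CPM in the others. Mrpl16, a conserved protein near the peptidyl transferase centre, stood at 38.7 CPM in clone 17, against 22.4 to 33.5 CPM in the others. Both were above all other clones, and neither passed adjustment by the edgeR test (adjusted p of 0.133 and 0.503), whereas DESeq2 called Mrpl43 (adjusted p of 0.00965). Mrpl43 overlaps 507 exon bases of Twnk, the mitochondrial DNA helicase gene. Twnk lies in the same higher part and was also higher in clone 17 (56.3 CPM, against a mean of 42.8 ± 2.22 SD in the other 10). Its difference from the median clone was 0.41 on the log2 scale, and the shift of the part was 0.48. Whether shared reads added to either rise was not tested.

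In clone 16 the whole of chromosome 3 formed 1 higher part of 458 genes with a median shift of 0.56, and it held 5 members. Mrpl9, the counterpart of bacterial L9, stood at 88.8 CPM in clone 16, against a lowest of 54.5, a median of 56.4 and a highest of 64.6 CPM in the other 10. Its log2 fold change was 0.62 (SE 0.11) with an adjusted p of 0.0509 by the edgeR test, and it passed when clone 24 was left out (0.0435) or when only genes with at least 5 CPM were tested (0.0448), and with DESeq2 (9.96e-05). Mrpl24, which lies near the tunnel exit, stood at 83.6 CPM in clone 16, against 53.4 to 72.0 CPM in the others. Mrpl47 stood at 28.8 CPM in clone 16, against 19.4 to 24.3 CPM in the others, although 1068 of its 4419 exon bases overlap 2 genes on the other strand. Mrps28 was the exception, at 24.2 CPM in clone 16, within the 17.4 to 27.3 CPM of the others. The fifth member, Mrps21, named after its values were seen to complete the set, stood at 17.9 CPM in clone 16, against 9.55 to 12.3 CPM in the others, with an adjusted p of 0.222 by the edgeR test and 0.0347 by DESeq2.

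In clone 22 higher parts covered most of chromosome 8. Mrpl34, a small conserved protein of the large subunit, stood at 24.2 CPM in clone 22, against a lowest of 10.45, a median of 11.9 and a highest of 15.2 CPM in the other 10. Its difference from the median clone, 0.93 on the log2 scale, was the largest upward difference of any member, and the median of the other genes in that part was 0.49. Mrps31, a small subunit protein with no bacterial counterpart, stood at 84.7 CPM in clone 22, against 44.98 to 59.9 CPM in the others, and its part had a median shift of 0.42. Both lay above all other clones, with edgeR adjusted p of 0.0847 and 0.0923, and DESeq2 called both, with adjusted p of 0.000913 and 0.000904.

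Lower parts held 3 members, each with a difference close to the shift of its part. Mrpl20, which contacts the ribosomal RNA in the large subunit, stood at 13.1 CPM in clone 19, against a lowest of 22.8, a median of 26.3 and a highest of 29.7 CPM in the other 10, and its part on chromosome 4 had 232 genes. Mrpl52 stood at 19.7 CPM in clone 21, against a lowest of 29.7, a median of 38.0 and a highest of 42.0 CPM in the others. Mrpl57 stood at 11.4 CPM in clone 21, against a lowest of 19.8, a median of 23.97 and a highest of 30.2 CPM in the others. Mrpl52 and Mrpl57 have no bacterial counterpart and lie in 1 part of chromosome 14 with 166 genes. None of the 3 groups of values overlapped. Relative to the median clone the differences were -0.92 for Mrpl20, -0.89 for Mrpl52 and -0.99 for Mrpl57 on the log2 scale, with parts at -0.93 and, for the last 2, -0.92. Their edgeR adjusted p were 0.0584, 0.115 and 0.111, so none passed, whereas DESeq2 called all 3, with adjusted p of 7.94e-05, 0.00156 and 0.00144.

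**Figure D4:**
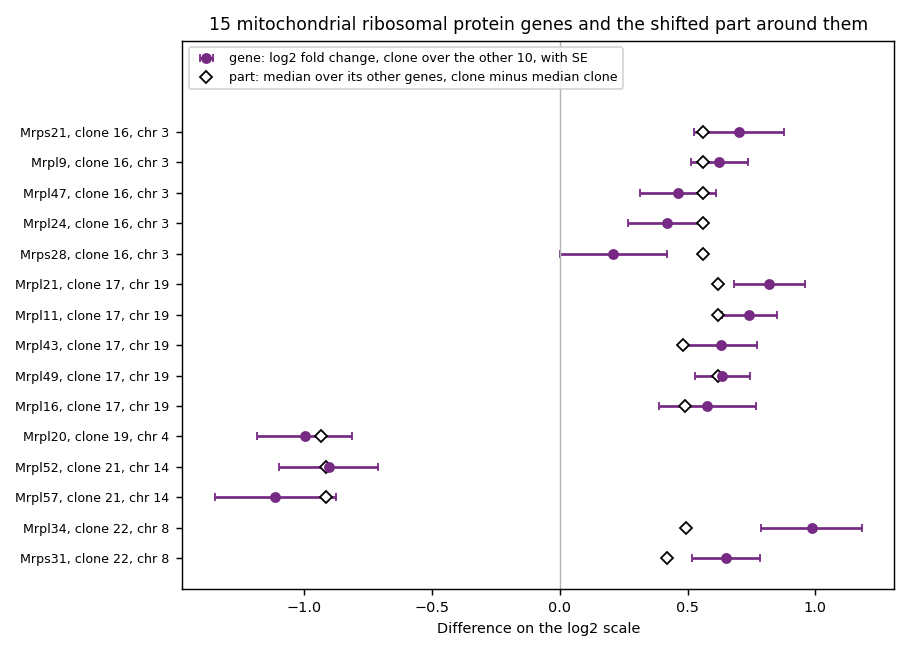
For the 15 members in a shifted part, the log2 fold change of the clone over the other 10 with its SE (filled circles) beside the median shift of the other genes of the part (open diamonds). Members and parts lie on the same side of 0 in all 15, with Mrps28 furthest below its part and Mrpl34 furthest above it. Of all tested pairs, 90.0% in higher parts and 96.0% in lower parts differed from the median clone in the direction of the part. Unlike the members, the other genes averaging 5 CPM or more were used to find the parts.

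Members inside shifted parts were compared with all tested genes there. The 2 sides differ. Members were left out when the parts were looked for, whereas the other genes averaging 5 CPM or more were used to find them. The direction and median of all tested genes there are therefore in part set by the search. Each of these members also lay in a part of 1 clone only. Some other genes lay in parts of several clones, such as Mtrf1 in higher parts of clones 16, 17 and 19. Such a gene can be highest in only 1 of these clones, and the others stand among the 10 compared. This can lower the shares of all tested pairs, which are therefore not a like measure for the members. The 12 pairs in higher parts had a median log2 difference of 0.63 from the median clone, with a range of 0.22 to 0.93, and all tested genes in higher parts had 0.50. Of these 12, 11 lay above all other 10 clones, against 51.3% of all tested pairs in higher parts. By the edgeR test 11 were higher at an unadjusted p under 0.05, against 38.6%, and 3 at an adjusted one, against 2.75%. The 3 pairs in lower parts had a median of -0.92, and all tested genes in lower parts -0.87. All 3 lay below all other clones, against 74.6%, and all 3 were lower at an unadjusted p under 0.05, against 68.1%. Of the 3, 0 passed adjustment, against 18.4%.

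Members outside the parts on the same chromosomes did not follow them. In clone 19 the chromosome 4 members Mrpl50, Mrpl37 and Mrps15 differed from the median clone by 0.00, 0.13 and 0.35 on the log2 scale, and Mrpl20, inside the part, by -0.92. In clone 21 the chromosome 14 member Mrps16 differed by -0.01. Over all 821 member pairs outside parts the differences had a median of 0.00 and a range of -0.51 to 0.64. Of these 24 (2.92%) had an unadjusted p under 0.05 by the edgeR test, against 4.88% of all tested pairs outside parts, and 0 had an adjusted p under 0.05, against 0.0696%. Members lay above or below all other clones in 134 of the 821 pairs (16.3%), against 17.1% of all tested pairs there.

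The 2 members with the smallest p outside the parts, named after their values were seen, were Mrpl40 and Mrpl42. Mrpl40 stood at 74.99 CPM in clone 26, against a lowest of 45.5, a median of 49.5 and a highest of 55.3 CPM in the other 10. Mrpl42 stood at 54.4 CPM in clone 19, against a lowest of 30.01, a median of 37.1 and a highest of 40.7 CPM in the others. Each clone lay above all others, and the log2 fold changes of 0.59 (SE 0.12) and 0.60 (SE 0.16) had edgeR adjusted p of 0.0945 and 0.276. DESeq2 called Mrpl40 in clone 26, with an adjusted p of 0.000667.

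The level of the whole set was described by a score. For each clone the log2(CPM + 1) of each member minus its mean over clones was averaged over the 76 members. This score was highest in clone 17 at 0.14, where 60 of 76 members were above their own median, and next in clone 19 at 0.07. It was lowest in clone 25 at -0.08, where 51 members were below their own median, and next in clone 21 at -0.06. The whole range of the score was 0.22 on the log2 scale, and the summed level of the members was lowest in clone 21 at 2882 CPM and highest in clone 17 at 3303 CPM, with a mean of 3034 ± 120 CPM (SD, n = 11). Without the members that lie in a shifted part of that clone, clone 17 was still the highest at 0.10 and clone 25 the lowest at -0.08. The median difference over all tested genes stayed between -0.01 and 0.01 in every clone, which the normalization between libraries largely sets.

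The scores of the 2 subunits were compared first. Over the 11 clones the score of the small subunit and that of the large subunit had a Pearson r of 0.853 and a Spearman rho of 0.864, and r was 0.623 without clones 17 and 19, which lay farthest from the median. The member score and that of the nuclear respiratory chain and ATP synthase genes had r of 0.932 and rho of 0.764, and r was 0.743 without clones 17 and 19. Clone 17 was also highest (0.24) and clone 25 lowest (-0.19) for the respiratory chain genes. Genes in shifted parts were kept in the scores of the respiratory chain and the cytosolic ribosomal protein genes. How far such genes add to these correlations was not tested. With the cytosolic ribosomal protein genes r was 0.318 and rho 0.127, and r was 0.165 without clones 17 and 19. There clone 26 was highest at 0.20 and clone 16 lowest at -0.12. The score had r of 0.0740 with the total counts and -0.207 with the normalization factor. These correlations describe 11 points, and both scores of a point come from the same library. Pairs of members had a median r of 0.134 over the clones, against 0.000322 for all tested genes, and 0.426 for cytosolic ribosomal protein genes and 0.319 for respiratory chain genes. In 9.05% of member pairs r was above 0.6, against 5.60% of pairs of tested genes.

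**Figure D5:**
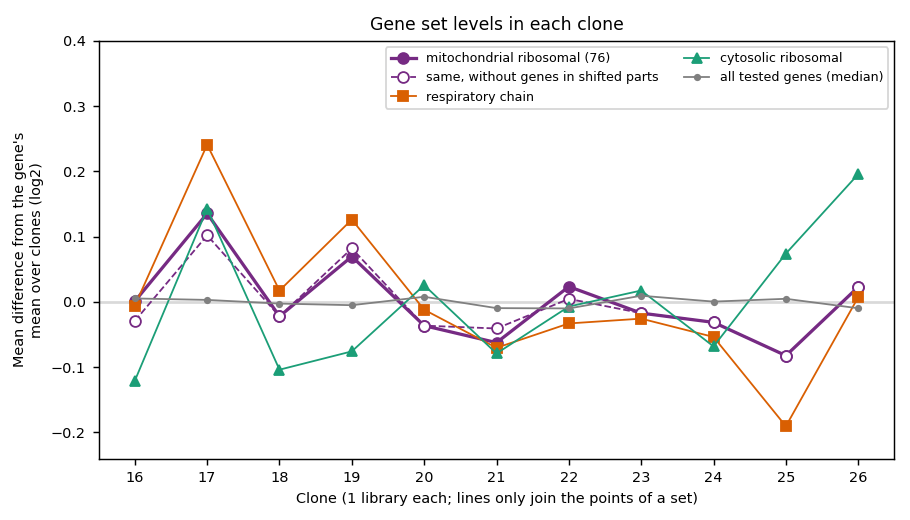
Score of the members in each of the 11 clones beside those of the nuclear respiratory chain and the cytosolic ribosomal protein genes, as the mean of log2(CPM + 1) minus each gene's mean over clones. Open circles leave out members in a shifted part of the clone, and grey points are the median of all tested genes, which the normalization largely sets. Clone 17 is highest and clone 25 lowest for the members and for the respiratory chain genes, while clone 26 is highest and clone 16 lowest for the cytosolic ribosomal protein genes.

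Among 10281 other genes averaging 5 CPM or more, 17 had an r above 0.9 with the score over the 11 clones and 21 below -0.9. The 8 highest were Lrsam1, Psmd2, Auts2, Cad, Eno3, Pla2g6, Ppa1 and Aarsd1, with r between 0.921 and 0.957. Of these, Pla2g6 on chromosome 15 lies in a shifted part of at least 1 clone. With the score that leaves out members in shifted parts, r was 0.885 for Lrsam1, 0.898 for Auts2 and 0.858 for Pla2g6, and 0.925 to 0.965 for the other 5. Psmd2 encodes a proteasome subunit and ran from 216 to 310 CPM, Cad encodes the enzyme that starts pyrimidine synthesis and ran from 189 to 463 CPM, and Ppa1 encodes a pyrophosphatase and ran from 38.7 to 89.6 CPM. The 4 lowest were Spin4, Sepsecs, Mfsd14b and Pard6g, with r between -0.956 and -0.936, and between -0.952 and -0.873 with that second score. Sepsecs, an enzyme of selenocysteine synthesis, ran from 30.1 to 53.5 CPM.

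The surrounding machinery of mitochondrial gene expression was read from 5 lists of 80 genes, of which 78 were tested. They held mitoribosome proteins under other names, translation factors, assembly factors, mitochondrial tRNA synthetases, and factors for mitochondrial DNA and its transcripts. By the edgeR goodness-of-fit test 1 of the 78 was variable and 2 (2.56%) had an unadjusted p under 0.05, against the 7.68% and 13.1% of all tested genes given above. The variable gene was Mtrf1, a mitochondrial release factor gene, at 5.17 CPM in clone 21 and 22.9 to 23.7 CPM in clones 16, 17 and 19. All 4 of these clones had a shifted part of chromosome 14 that holds Mtrf1, lower in clone 21 and higher in the other 3. The most abundant gene in each of the 5 lists was, in turn, Dap3, a small subunit protein, at 100.3 ± 24.7 CPM, the translation factor gene Gfm2 at 90.02 ± 7.47, the RNA helicase gene Dhx30 at 157 ± 10.9, the leucyl-tRNA synthetase gene Lars2 at 1528 ± 203 and Lrpprc, which stabilises mitochondrial transcripts, at 265 ± 49.3 CPM (SD, n = 11 each). Lars2 stood far above the next synthetase gene, Iars2 at 123 ± 19.2 CPM (SD, n = 11). How reads that match several places were counted was not given, and whether all reads counted for Lars2 come from its transcript was not tested.

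The edgeR quasi-likelihood test gave 2 clone calls among the 858 pairs of these lists (0.233%), both lower, a share near the 0.213% of all tested pairs. Oxa1l, which inserts newly made proteins into the inner membrane, stood at 53.7 CPM in clone 21, against 129 ± 14.1 CPM in the other 10 (mean and SD). It fell by 1.27 on the log2 scale (SE 0.19, edgeR adjusted p of 0.0229) and lies in the same chromosome 14 part as Mrpl52 and Mrpl57. Lrpprc stood at 139 CPM in clone 25, against 278 ± 27.6 CPM in the other 10. It fell by 0.999 on the log2 scale (SE 0.18, edgeR adjusted p of 0.0469), within a lower part of chromosome 17. Over the 5 lists 20 pairs lay in shifted parts. They came from 15 genes, since some, such as Mtrf1, lay in parts of several clones. All 20 had the direction of the part, against 90.0% of all tested pairs in higher parts and 96.0% in lower parts. Unlike the members, these genes were not left out when the parts were looked for. The median difference was 0.60 in 16 higher pairs (0.04 to 1.16) and -0.93 in 4 lower pairs (-1.26 to -0.72).

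Of 12 genes for nuclear regulators of mitochondrial genes 11 were tested, and 1 of these (9.09%) was variable by the edgeR goodness-of-fit test, near the 7.68% of all tested genes, while 2 (18.2%), Myc and Mycn, had an unadjusted p under 0.05, against 13.1%. The variable gene was Myc, the growth-promoting transcription factor gene, at 5.39 CPM in clone 26 to 27.4 CPM in clone 18 (edgeR adjusted p of 0.0180). The most abundant was Pprc1, a coactivator gene of the PGC-1 family, at 262 ± 48.9 CPM (SD, n = 11), with its highest level of 389 CPM in clone 17, where it lies in a higher part of chromosome 19.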

How the data were processed

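The deposited values were raw counts, whole numbers of reads for 22369 mouse Ensembl gene IDs in 11 libraries. Per the submitters' processing notes the tools were TopHat 1.4.0 and Bowtie 0.12.7, with mm9 and hg19 as the builds named. Per the deposited file's name, its genes are the protein-coding ones of Ensembl release 66. The counting tool, strand setting and treatment of reads that match several places were not given in the sources used here, so genes that overlap others or have pseudogenes are uncertain. Per the labels' protocols, RNeasy total RNA went into TruSeq RNA libraries.

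GENCODE vM21 supplied symbols (for 20777 IDs), exon lengths, chromosomes and the order of genes. Its build, GRCm38, is later than mm9. These lengths, exon overlaps and orders were joined to the counts by gene ID, so they can differ from the gene models that were counted. Promoter windows came from RefSeq. The edgeR package (4.0.16, R 4.3.3) was used with TMM library sizes, whose factors were 0.971 to 1.04, on the 12479 genes that averaged 1 CPM or more. Depth was 10846005 to 16868500 counts, and 3 counts were worth 0.173 to 0.284 CPM, a limit that covers counting error only. For spread, an intercept-only model with trended dispersion gave a goodness-of-fit chi-square with 10 degrees of freedom. For single clones, edgeR's quasi-likelihood test set 1 clone against the other 10, and Benjamini-Hochberg adjustment ran over 137269 pairs. The SE restates that test and holds no spread within a clone. Logs used a pseudocount of 1, and a shifted part needed at least 10 genes. The steps were tested on simulated data.

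The members and lists were chosen with earlier results of these data known. Kinases, pseudogenes and assembly factors that matched the symbol patterns of the comparison sets were removed after their names were seen. Genes were named by rule: the highest 5 and lowest 3 per subunit, the largest 6 and smallest 3 spreads, members called or in a part (up to 4 per part), the Mrps18 paralogues, the 8 genes most and 4 least like the score, list members called or most abundant, and members next to the minimum. Alternatives used DESeq2 (1.42.0), other filters, windows, lengths and pseudocounts, and left out each clone. Other steps ran in Python (3.11.15) with pandas (2.3.3), NumPy (2.4.6), SciPy (1.17.1) and matplotlib (3.10.9).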

Additional observations from a re-analysis of the deposited data

How the results depend on the processing

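The count of 0 variable members held with DESeq2 size factors, with no filter on low counts, with a minimum of 5 CPM, without genes in shifted parts, with the DESeq2 dispersion trend and with each clone left out. The 3 clone calls became 1 with no filter on low counts, 4 with a minimum of 5 CPM, 0 without genes in shifted parts, which leaves out the 3 called genes, and 12 with the DESeq2 Wald test. The count was 3 with DESeq2 size factors. With each clone left out in turn it ranged from 0 to 3, and 0 was reached without clone 17. Of the 12 DESeq2 calls 11 were in shifted parts, and the other was Mrpl40 in clone 26. Of the 15 members in a shifted part, 0 turned in direction under any alternative run. The median difference in higher and in lower parts and the range of the score moved by less than the spread between genes or clones. The ratio of small to large subunit was 0.714 with the longest transcript as the length, and 0.73 with Mrps18a and Mrps30 counted in the large subunit and without Mrps36, which was chosen after seeing the data, against 0.669. No paired analysis was possible because each clone has 1 library and the clones form 1 group. With 1 library per clone, the variation within a clone was not measured, and a member at Mrpl23's level had only 11 to 34 counts per library.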
